A study of Mus musculus with 12 samples.

Results

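The genes described here carry the names of proteins of the cytosolic ribosome. They were chosen by name from the gene symbols of the deposited count tables, as symbols beginning with Rpl or Rps and a number, the stalk genes Rplp0 to Rplp2, and Rpsa, without symbols marked as pseudogenes and without the ribosomal protein S6 kinases. The name rule matched 89 symbols. A symbol with under 10 counts in every library was left out, which removed Rps12l1 and Rpl10l at 0 counts throughout, Rpl32l with at most 7 counts and Rpl3l with at most 9. This left 85 genes of 55809 symbols, of which 50 carry a large subunit name and 35 a small subunit name. Rpl7l1, known for work in ribosome assembly, is a member by name. So are Rps4l, Rpl6l, Rps3a2 and Rps3a3, which had no coding transcript under their symbols.

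The study asked which transcriptional regulators act on Mc4r in the mouse hypothalamus, and its 12 RNA sequencing libraries fall into 4 groups of 3. Untreated Mc4r-Cre; Ai14 mice, 4 weeks old, gave the TOM positive and TOM negative cells of the hypothalamus, and in these mice Cre made by Mc4r-expressing cells turns on the red protein tdTomato (TOM) of the Ai14 allele. The second pair used mice of genotype Otp fl/fl; Ai14 that were 26 weeks old, whose paraventricular hypothalamic nucleus (PVH) was taken 12 weeks past the injection of an adeno-associated virus (AAV). AAV-Cre tissue was sorted for TOM and AAV-GFP tissue for GFP, so all 6 libraries carry the floxed Otp alleles while the sorted colour differs. No label states if each library is its own animal, and every p-value here therefore speaks of the spread among libraries, which may be technical.

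A ribosome is built from ribosomal RNA and one copy of most ribosomal proteins, the stalk proteins excepted, and cells make these proteins in matched amounts. The small subunit decodes the messenger RNA, and the large subunit joins the amino acids. Ribosomal protein messages are abundant, mostly short, and in mammals begin with a run of pyrimidines, the 5′ terminal oligopyrimidine (TOP) tract, through which the kinase complex mTORC1 controls their translation. Because translation is controlled in this way, a message level is not a measure of the protein made.

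The transcription start regions of 8 of the named members are shown, and not every window holds a pyrimidine run at the start. They are RefSeq sequences on GRCm38.p6, read 5′ to 3′ on the strand of the gene, 15 bases before the annotated start followed by 15 from it. Capitals mark each CTTTC or CTTCC. Other pyrimidine runs, as in Rpl4, are unmarked. Capitals therefore do not show a TOP tract, nor does their absence show the lack of one.
Rps27: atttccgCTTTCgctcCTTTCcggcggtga
Rplp0: gtcttcgggtttcgaggaccgcctggttct
Rpl10: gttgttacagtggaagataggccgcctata
Rplp2: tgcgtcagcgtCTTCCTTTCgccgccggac
Rpl38: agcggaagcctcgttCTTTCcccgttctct
Rpl31: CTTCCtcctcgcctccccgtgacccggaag
Rpl4: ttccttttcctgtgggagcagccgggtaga
Rpl22l1: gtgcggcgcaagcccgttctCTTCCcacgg
These windows lie at chr3:90213634-90213663 on the minus strand for Rps27, chr5:115559452-115559481 on the plus strand for Rplp0, chrX:74270801-74270830 on the plus strand for Rpl10 and chr7:141447636-141447665 on the plus strand for Rplp2. Those of the other members lie at chr11:114668565-114668594 on the plus strand for Rpl38, chr1:39367836-39367865 on the plus strand for Rpl31, chr9:64173372-64173401 on the plus strand for Rpl4 and chr3:28805493-28805522 on the plus strand for Rpl22l1. A start window was found for 61 of the 85 members. CTTTC or CTTCC stood on the gene strand in 25 of these 61 (41.0%), and in 3259 of 27025 genes of the same table (12.1%). On the opposite strand the shares were 18.0% of the members and 12.2% of all genes. The 2 motifs can overlap, as in Rplp2, and a match describes these letters only.

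The libraries held 17727134 to 27827853 counts in TOM positive cells, 22379648 to 23002571 in TOM negative cells, 13506018 to 15125868 in AAV-Cre cells and 14545566 to 19245171 in AAV-GFP cells. Genes with any counts numbered 16011 to 18160 in TOM positive and 18453 to 19023 in TOM negative libraries. They numbered 14747 to 16988 in AAV-Cre and 20778 to 23902 in AAV-GFP libraries. The part of these differences in the results was not tested. The deleted gene Otp had 12, 9 and 10 counts in AAV-Cre cells, against 91, 102 and 38 counts in AAV-GFP cells. Mc4r, whose Cre allele marks the TOM positive cells, had 63, 0 and 0 counts in TOM positive cells, against 0 in each library of TOM negative cells. Marker genes of other cell types moved with the groups. Microglial markers took 0.0643 to 0.141% of counts in TOM positive cells, against 3.06 to 3.48% in TOM negative cells, and oligodendrocyte markers took 9.93 to 11.2% in TOM positive cells, against 2.33 to 2.96% in TOM negative cells. Neuronal markers took 0.0804 to 0.106% in TOM positive cells and 0.0162 to 0.0227% in TOM negative cells.

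The ribosomal protein genes together took a smaller share of the counts in TOM positive cells than in TOM negative cells. The summed share was 0.398, 0.403 and 0.402% in TOM positive cells, against 0.595, 0.533 and 0.474% in TOM negative cells. All 3 TOM positive libraries lay below all 3 TOM negative ones. The means were 0.401 ± 0.0028% in TOM positive cells and 0.534 ± 0.060% in TOM negative cells (SD, n = 3 each). In the PVH pair the share was 0.574, 0.514 and 0.573% in AAV-Cre cells, against 0.532, 0.777 and 1.24% in AAV-GFP cells. Those groups overlapped, since AAV-GFP library 1 lay inside the AAV-Cre range, and AAV-GFP library 3 alone was more than 1%. Neither subunit overlapped between the TOM groups. Large subunit genes took 0.239 to 0.245% in TOM positive cells and 0.287 to 0.360% in TOM negative cells, and small subunit genes took 0.153 to 0.164% in TOM positive cells and 0.187 to 0.235% in TOM negative cells. In these bulk samples fewer cells of a type and less RNA per cell cannot be told apart.

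**Figure D1:**
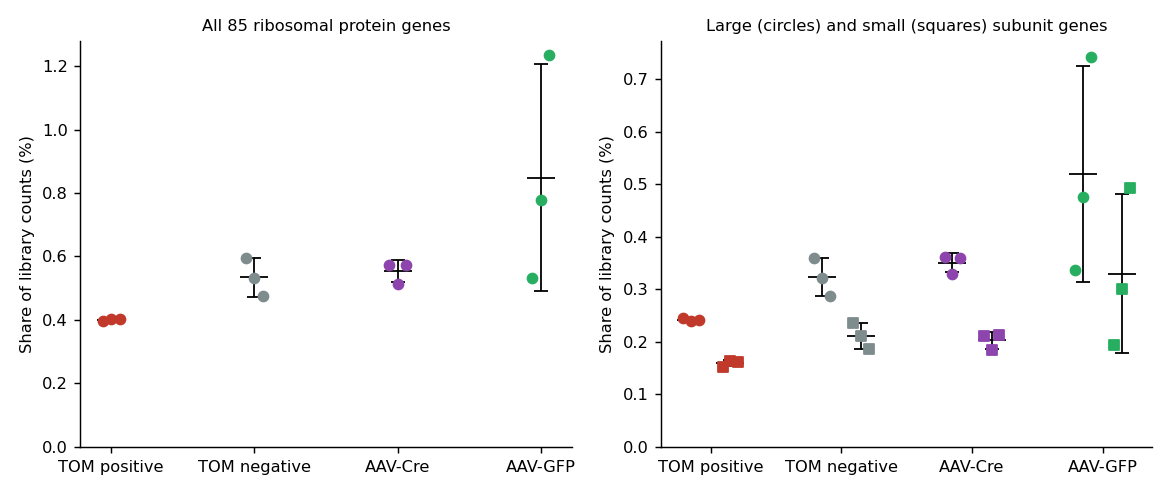
Share of each library's counts (%) in all 85 ribosomal protein genes (left) and in the large and small subunit genes (right), by group. Points are libraries and bars the mean ± SD of 3 libraries; the TOM positive libraries sit between 0.398 and 0.403%, below every TOM negative library, while the AAV-GFP libraries spread between 0.532 and 1.24%.

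Across single genes, ribosomal protein messages were lower or not called in TOM positive cells, and none was higher. A fit of all 15228 genes that passed the filter on low counts, with edgeR's quasi-likelihood test and Benjamini-Hochberg adjustment at 0.05, included 82 members. Of these, 28 fell (34.1%), 0 rose and 54 did not pass the test, while 13.4% of all genes tested fell and 10.4% rose. The large subunit gave 15 of 48 and the small subunit 13 of 34. The median log2 fold change of the members tested was -0.62, against -0.02 over all genes, and the fitted value was below 0 in 79 of them and in 50.9% of all genes. Other genes with coding sequences as short as those of the members were also below 0: in 3 length groups of 75 to 396, 399 to 564 and 576 to 1257 bases the medians were -0.67, -0.57 and -0.62 in members and -0.32, -0.25 and -0.23 in other genes, so the gap was smaller against genes of like length than against all genes. In 62 members all 3 TOM positive libraries lay below all 3 TOM negative ones, a pattern found in 25.6% of all genes tested. Leaving out TOM negative library 2 left 6 calls, TOM negative library 1 left 12, TOM positive library 1 or 3 left 14 each, TOM positive library 2 left 22 and TOM negative library 3 left 27. Rps27, Rplp0, Rpl32, Rps4l and Rps14 stayed called in each of these 6 fits. The share of all genes called in these fits is not given here. Each of these fits also holds fewer libraries. The counts therefore do not tell reliance on a single library apart from the smaller sample. Microglial markers (17 of 17 lower), blood markers (8 of 11 lower, with 0.0250 to 0.0479% of counts in TOM positive cells and 2.01 to 4.62% in TOM negative cells) and oligodendrocyte markers (14 of 15 higher) moved with this comparison. Of the blood list, Cd3e and Ly6d were at 0 in TOM positive cells, and their part in the result was not tested. Other settings moved the background as well as the members. DESeq2 called 43 members and 17.4% of all genes lower, and one fit of all 12 libraries 11 and 9.89%. Unscaled totals gave 13 and 10.1%, and the fit with the replicate number as a block 11 and 7.14%. A test against a 1.5-fold change called 6 of the 82 members lower, a smaller share than the 8.57% of all genes.

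**Figure D2:**
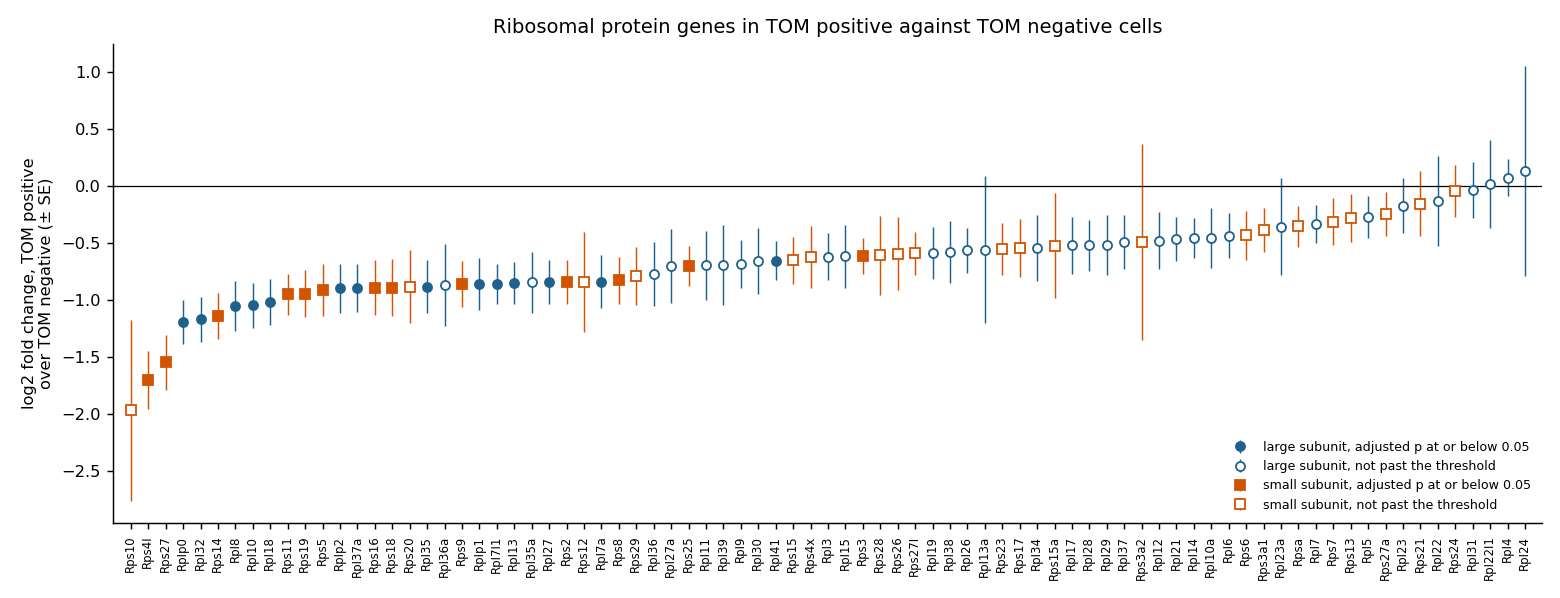
log2 fold change (± SE) of 81 ribosomal protein genes, TOM positive over TOM negative, in order of size. Circles are large and squares small subunit genes, filled where the adjusted p was at or below 0.05; 1 further member tested, called lower, is not drawn; the 27 filled points all lie below 0 and only Rpl22l1, Rpl4 and Rpl24 lie above it.

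Among large subunit genes, the stalk fell as a whole. Rplp0 encodes the protein that anchors the stalk, to which translation factors bind. It had 120.3, 107 and 92.4 CPM in TOM positive cells, against 279.9, 253 and 197 CPM in TOM negative cells. Every TOM positive library was lower than every TOM negative one, at -1.19 ± 0.19 on the log2 scale (edgeR adjusted p = 0.0055). Rplp1 and Rplp2 encode the proteins that pair on that anchor. Rplp1 had 32.0, 41.0 and 36.0 CPM in TOM positive cells, against 80.2, 58.3 and 59.1 CPM in TOM negative cells. Rplp2 had 30.8, 28.8 and 25.1 CPM in TOM positive cells, against 55.9, 52.8 and 49.0 CPM in TOM negative cells. The groups did not overlap for either gene, with log2 fold changes of -0.86 ± 0.23 for Rplp1 and -0.90 ± 0.21 for Rplp2 (edgeR adjusted p = 0.031 and 0.022). Rplp1 kept its call in 1 and Rplp2 in 3 of the 6 fits with a library left out, and both lost it without TOM negative library 1 or 2 or TOM positive library 3.

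Rpl32, a protein of the large subunit, had 43.9, 41.2 and 38.99 CPM in TOM positive cells, against 106, 97.7 and 75.7 CPM in TOM negative cells. Rpl10, which joins the large subunit late, in the cytoplasm, had 51.3, 45.1 and 60.4 CPM in TOM positive cells, against 118, 113 and 92.6 CPM in TOM negative cells. Both genes were lower in all 3 TOM positive libraries, at -1.17 ± 0.20 for Rpl32 and -1.05 ± 0.20 for Rpl10 on the log2 scale. Rpl8 and Rpl13 also fell, at -1.05 ± 0.22 and -0.85 ± 0.19. Rpl10 and Rpl8 lost the call without TOM negative library 2, and Rpl13 without that library or TOM positive library 3. Rpl41, which encodes the shortest ribosomal protein, fell by less, with -0.66 ± 0.17 on the log2 scale (edgeR adjusted p = 0.031). This gene kept its call in 1 of those 6 fits, the one without TOM positive library 2.

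Several large subunit genes were not called, and only some of these gave values near 0. Rpl4, which lines the exit tunnel of the growing chain, had 191, 186 and 189 CPM in TOM positive cells, against 214, 169 and 154 CPM in TOM negative cells. The groups overlapped, and its log2 fold change was 0.08 ± 0.17. Rpl31 and Rpl22l1 had log2 fold changes of -0.03 ± 0.25 and 0.02 ± 0.39. Rpl5 and Rpl11 bind the 5S ribosomal RNA and, when unassembled, the p53 regulator Mdm2. Rpl5 had 56.3, 53.3 and 63.3 CPM in TOM positive cells, against 77.9, 65.5 and 65.2 CPM in TOM negative cells, with no overlap but no call (log2 fold change -0.27 ± 0.18, edgeR adjusted p = 0.34). Rpl11 had a log2 fold change of -0.70 ± 0.30 and did not pass either. Rpl3, a core protein of the peptidyl transferase region, was not called at -0.62 ± 0.20 on the log2 scale (edgeR adjusted p = 0.067).

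Among small subunit genes, Rps27, which encodes a zinc-binding protein, had 14.6, 15.4 and 18.7 CPM in TOM positive cells, against 48.5, 45.6 and 48.1 CPM in TOM negative cells. The 2 groups were well separated, at -1.55 ± 0.24 on the log2 scale (edgeR adjusted p = 0.0050). Rps4l, named for its likeness to Rps4x, had 19.0, 16.9 and 13.0 CPM in TOM positive cells, against 58.5, 50.5 and 50.6 CPM in TOM negative cells. Its log2 fold change of -1.71 ± 0.25 was the furthest below 0 among the called members. How much of the Rps4l sequence is shared with other genes was not measured. Rps14, a protein of the subunit's platform, had 58.6, 68.5 and 79.2 CPM in TOM positive cells, against 181, 147 and 128 CPM in TOM negative cells. It was lower in each TOM positive library, at -1.14 ± 0.20 on the log2 scale (edgeR adjusted p = 0.0082). Rps19, whose human counterpart is mutated in Diamond-Blackfan anaemia, fell, at -0.94 ± 0.21, and kept its call without TOM negative library 3 or TOM positive library 2. Rps6, the substrate of the S6 kinases, had 62.4, 73.0 and 76.0 CPM in TOM positive cells, against 104, 110.1 and 71.2 CPM in TOM negative cells. Its groups overlapped and it did not pass (log2 fold change -0.43 ± 0.22, edgeR adjusted p = 0.20). Rpsa, Rps27a, which is made as a fusion with ubiquitin, and Rps24 did not pass, with log2 fold changes of -0.35 ± 0.18, -0.24 ± 0.19 and -0.04 ± 0.23. Rps10 had the fold change furthest below 0, -1.97 ± 0.80, at 0.872, 0.443 and 0.566 CPM in TOM positive cells, against 2.62, 2.03 and 2.75 CPM in TOM negative cells. Its levels were low and it did not pass (edgeR adjusted p = 0.12).

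Members with a related second gene were also read as pairs. Rps27l took 76.6, 76.9 and 73.1% of the summed counts of Rps27 and Rps27l in TOM positive cells, against 64.5, 60.4 and 58.5% in TOM negative cells. The groups did not overlap. Rps27l itself had a log2 fold change of -0.59 ± 0.19 and did not pass (edgeR adjusted p = 0.061). Of its stretches of 50 bases, Rps27 shares 98.6% with other genes and Rps27l 22.4%. How multi-mapping reads were treated in the TOM libraries is not given, so the share of counts may not be that of the messages. Rps4l took 28.1, 29.5 and 16.6% of the counts of Rps4x and Rps4l in TOM positive cells, against 39.3, 36.1 and 46.8% in TOM negative cells. Rpl7l1, related to Rpl7 but known for work in ribosome assembly, fell, at -0.86 ± 0.18 on the log2 scale (edgeR adjusted p = 0.013, lost without TOM negative library 2), while Rpl7 did not pass at -0.33 ± 0.17. Rpl22l1 took 39.4 ± 5.4% of the pair with Rpl22 in TOM positive cells and 35.8 ± 2.2% in TOM negative cells (SD, n = 3 each). Rpl39l, a testis-enriched relative of Rpl39, had 0 counts in each TOM positive library, against 2, 53 and 2 counts in TOM negative cells. That is 1 library with counts to speak of, and Rpl39l, Rpl6l and Rps3a3 did not pass the filter on low counts.

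Genes around the ribosome were called in both directions in TOM positive cells, and the list counts stand beside 10.4% higher and 13.4% lower over all genes. Fau and Rack1, ribosome components outside the name rule, both fell. Fau, a ubiquitin-like fusion of a small subunit protein, had 40.8, 31.5 and 41.6 CPM in TOM positive cells, against 90.7, 80.1 and 62.1 CPM in TOM negative cells (log2 fold change -1.03 ± 0.23, edgeR adjusted p = 0.018). Initiation factors rose in 6 and fell in 4 of 29 genes tested, and elongation factors rose in 1 and fell in 3 of 10. The initiation factors that fell are close to the all-gene share. Eif2s2, a subunit of the factor that brings the initiator tRNA, had 98.8, 91.7 and 95.4 CPM in TOM positive cells, against 43.2, 39.5 and 42.1 CPM in TOM negative cells. It was higher in all TOM positive libraries, at 1.20 ± 0.17 on the log2 scale. Eef2k, the kinase that slows elongation, fell, at -2.55 ± 0.42.

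Ribosome assembly genes rose in 4 and fell in 7 of 39, near the all-gene shares of 10.4% and 13.4%. Nop2, a ribosomal RNA methyltransferase, fell, at -1.55 ± 0.23 on the log2 scale (edgeR adjusted p = 0.0039). RNA polymerase I genes rose in 0 and fell in 3 of 14, and other messages with a TOP tract rose in 2 and fell in 5 of 21. Of the mTORC1 and TOP control genes, 5 of 17 rose and 2 fell. Myc, a driver of ribosome production, had 5.80, 8.55 and 13.0 CPM in TOM positive cells, against 58.9, 45.0 and 65.5 CPM in TOM negative cells, and Pdcd4, a brake on initiation, rose, at 1.58 ± 0.26. Chaperones of ribosomal proteins rose in 1 and fell in 2 of 10, with Heatr3 at 1.15 ± 0.22. The list of the 5S particle and p53 rose in 2 and fell in 2 of 7, with Mdm2 at 1.53 ± 0.25 and the p53 target Cdkn1a at -1.53 ± 0.28. Mitochondrial ribosomal proteins, encoded in the nucleus for a separate ribosome, rose in 0 and fell in 5 of 77, with a median of -0.33 and fewer calls than the all-gene shares. Messages encoded by the mitochondrial genome rose in 8 of 10 tested.

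After AAV-Cre, no ribosomal protein gene passed the test in the PVH cells. The fit held 15408 genes, of which 1.97% fell and 0.63% rose after adjustment. It included 81 members, and 0 were called in either direction (edgeR). At an unadjusted p below 0.05 there were 29 members, all of them on the low side, where 12.1% of all genes lay. DESeq2 called 2 members and 6.87% of all genes lower, and one fit of all 12 libraries 3 members and 2.41%. The median log2 fold change of the members was -0.89, against -0.16 over all genes, and the fitted value was below 0 in 79 of 81 and in 57.2% of all genes. In 22 members the AAV-Cre libraries all lay below the AAV-GFP libraries, as did 18.6% of all genes tested. Without AAV-GFP library 3 the median of the members was -0.34, and without AAV-GFP library 1 it was -1.15. Medians over all genes are not given for these fits, so a shift of all genes is not told apart from the members' own. AAV-GFP library 3 also had the highest share of mitochondrially encoded counts, 5.57%, against 1.42 to 1.99% in AAV-Cre cells and 2.19 and 1.03% in AAV-GFP libraries 1 and 2. Ependymal and tanycyte markers took 0.00478 to 0.00488% of counts in AAV-Cre cells, against 0.0963 to 0.177% in AAV-GFP cells, with 6 of 10 called lower and Rax at 0 in AAV-Cre cells. Oligodendrocyte markers took 5.97 to 7.47% in AAV-Cre cells and 1.56 to 5.02% in AAV-GFP cells, with 4 of 15 called higher. Microglial markers took 0.822 to 1.60% in AAV-Cre cells and 0.335 to 0.629% in AAV-GFP cells, with 1 of 17 called higher. Endothelial markers took 0.00412 to 0.00683% in AAV-Cre cells and 0.0501 to 0.0768% in AAV-GFP cells, with Abcb1a, Cdh5 and Emcn at 0 in AAV-Cre cells. Blood markers took 3.31e-05 to 0.00464% in AAV-Cre cells and 0.0673 to 0.415% in AAV-GFP cells, the highest in AAV-GFP library 3, with Alas2, Cd79a, Ly6d and S100a9 at 0 in AAV-Cre cells. Their part in the result was not tested.

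The members with the smallest p in the PVH pair were Rpl31, Rps4l, Rpl38, Rplp2, Rps27l and Rps28, none of which passed. Rpl31 had 54.0, 77.1 and 60.2 CPM in AAV-Cre cells, against 108, 127 and 187 CPM in AAV-GFP cells. The groups did not overlap, and the log2 fold change was -1.14 ± 0.31 (edgeR adjusted p = 0.093). Rps28, among the smallest proteins of the small subunit, had 11.7, 13.2 and 16.3 CPM in AAV-Cre cells, against 18.0, 49.7 and 65.3 CPM in AAV-GFP cells. Rpl38, which in mouse embryos is needed for translation of some Hox messages, had 21.5, 22.4 and 25.2 CPM in AAV-Cre cells, against 29.3, 76.6 and 85.2 CPM in AAV-GFP cells. In both genes AAV-GFP library 1 lay near the AAV-Cre libraries and AAV-GFP libraries 2 and 3 lay far above them. The log2 fold changes were -1.69 ± 0.51 for Rps28 and -1.47 ± 0.43 for Rpl38 (edgeR adjusted p = 0.12 and 0.12).

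Genes that fell in TOM positive cells gave these values in the other pair. Rplp0 had 147, 189 and 162 CPM in AAV-Cre cells, against 215, 228 and 352 CPM in AAV-GFP cells. Rps27 had 38.0, 27.8 and 34.6 CPM in AAV-Cre cells, against 36.3, 97.5 and 139 CPM in AAV-GFP cells. For Rps27 the AAV-GFP libraries spread more widely than the AAV-Cre libraries and overlapped them at library 1. Rplp0 and Rps27 had log2 fold changes of -0.67 ± 0.29 and -1.44 ± 0.48 and did not pass. Among all members tested, Rpl4, Rpl7 and Rpl7l1 had the PVH fold changes nearest 0, at -0.14 ± 0.30, -0.19 ± 0.44 and 0.21 ± 0.32. Each of them changed sign when some single library was left out. Of the 81 members tested in both pairs, 77 had fitted values below 0 in both, as did 31.5% of the 13975 genes tested in both, and the pairs share no library. No gene of the initiation, elongation, assembly, RNA polymerase I, TOP or mTORC1 lists passed in the PVH pair by edgeR. Rheb, the activator of mTORC1, came closest, with 73.1, 72.6 and 77.8 CPM in AAV-Cre cells, against 145, 175 and 192 CPM in AAV-GFP cells (log2 fold change -1.20 ± 0.24, edgeR adjusted p = 0.051).

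Fold changes in the PVH pair followed the length of the coding sequence. The 81 members with an annotated coding length were put into 3 groups of 27, of 75 to 396, 399 to 564 and 576 to 1257 bases. The median log2 fold change of AAV-Cre over AAV-GFP was -1.11 in the shortest, -0.89 in the middle and -0.65 in the longest group. Other genes of the same lengths had medians of -0.77, -0.59 and -0.28, so the order of lengths was not particular to ribosomal protein genes. Spearman's rho of fold change with coding length was 0.76 over 79 members, which come from the same 6 libraries, and 0.25 over other genes. In the TOM pair, whose medians by length are given above, rho was 0.083 over 80 members and 0.20 over other genes.

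**Figure D3:**
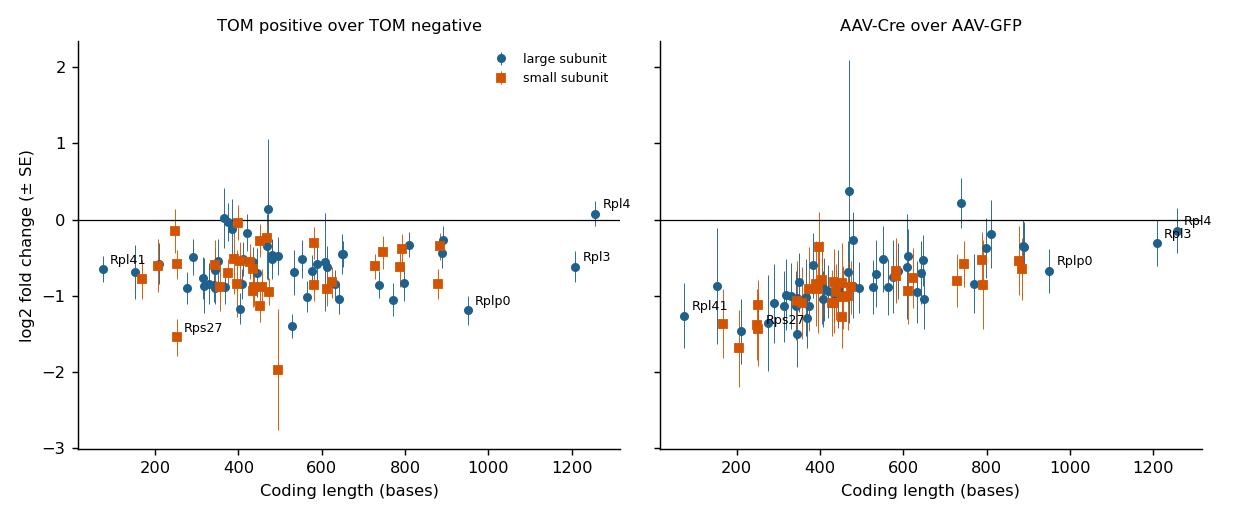
log2 fold change (± SE) of ribosomal protein genes against coding length in bases, for TOM positive over TOM negative (left) and AAV-Cre over AAV-GFP (right). Each point is a gene, circles large and squares small subunit; the right panel climbs with length (rho 0.76) and the left does not (rho 0.083).

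Per library, the counts of the shortest group divided by those of the longest were 0.311, 0.271 and 0.320 in AAV-Cre cells, against 0.335, 0.499 and 0.458 in AAV-GFP cells. All AAV-GFP libraries lay above all AAV-Cre libraries, with library 1 close to them. The ratio was 0.320, 0.332 and 0.336 in TOM positive cells, against 0.328, 0.325 and 0.383 in TOM negative cells, and those groups overlapped.

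**Figure D4:**
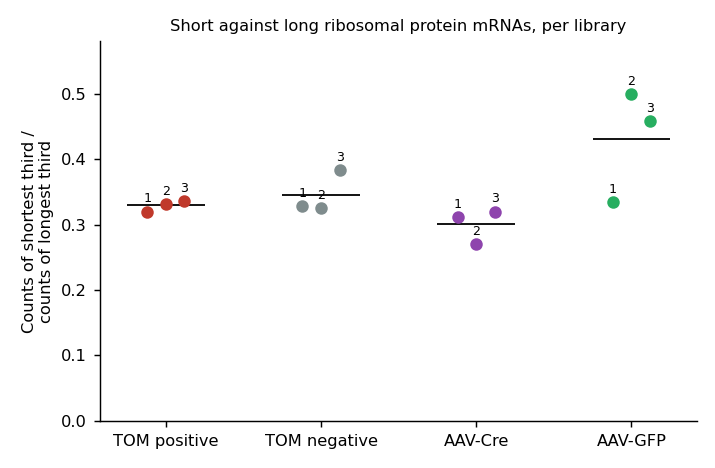
Counts of the shortest group of ribosomal protein genes over those of the longest, per library, with the replicate number beside each point and a line at the mean of 3 libraries. AAV-GFP libraries 2 and 3, at 0.499 and 0.458, are the highest of the 12.

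Levels per kilobase of exon kept nearly the same order in all groups. Each gene was divided by the same exon length in every group, so a like order was partly fixed in advance. That length can exceed the transcript, so genes are compared only roughly. Rps19 has 4685 exon bases and a representative transcript of 774, while Rpl36 has 383 for both. Spearman's rho over the 85 genes was 0.96 between TOM positive and TOM negative cells and 0.97 between AAV-Cre and AAV-GFP cells, and 0.89 to 0.92 between the pairs. Rplp1, Rpl13, Rplp0, Rpl4 and Rpl36 were among the highest levels over all libraries. Rplp1 averaged 72.8 ± 9.1 CPM per kilobase in TOM positive cells and 132.1 ± 24.9 in TOM negative cells (SD, n = 3 each). Rpl4 averaged 93.9 ± 1.1 CPM per kilobase in TOM positive cells and 89.1 ± 15.7 in TOM negative cells. It had the most counts of all members in each TOM positive library, where it held 5.07 to 5.26% of them, and Rpl13 did so in the other 9 libraries. Rpl6l, Rpl39l and Rps10 were the lowest.

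Counting limits touch several members. Multi-mapping reads were not counted in the AAV libraries, and 79 of the 81 members with a transcript share at least one stretch of 50 bases with another gene, with a median of 51.3% of such stretches shared. Rps27 shares 98.6%, Rpl3 85.6% and Rpl4 16.4%. The AAV libraries were counted without strand. Over 25% of the exon bases lie inside another symbol in 7 members, so their counts are uncertain. These are Rpl35, Rpl23a, Rpl24, Rpl13a, Rps10, Rpl5 and Rpl31. Rps4l, Rpl6l, Rps3a2 and Rps3a3 had no coding transcript under their symbols, so their shared stretches were not measured.

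The share of counts listed under the Rps3a copies differed between libraries of 1 group. Rps3a2 and Rps3a3 together took 0.516, 26.0 and 0.476% of the summed counts of Rps3a1 and both copies in AAV-Cre cells, against 30.7, 0.643 and 0.422% in AAV-GFP cells. One library of each group stood apart, AAV-Cre 2 and AAV-GFP 1. Rps3a3 had 189 counts in AAV-Cre library 2 and 247 counts in AAV-GFP library 1, and at most 7 in any other library. Rps3a1 had its lowest count of the group in the same 2 libraries, 730 in AAV-Cre 2 and 809 in AAV-GFP 1. In the TOM pair the share was 0.903 to 1.72% in TOM positive cells and 1.09 to 1.76% in TOM negative cells.

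**Figure D5:**
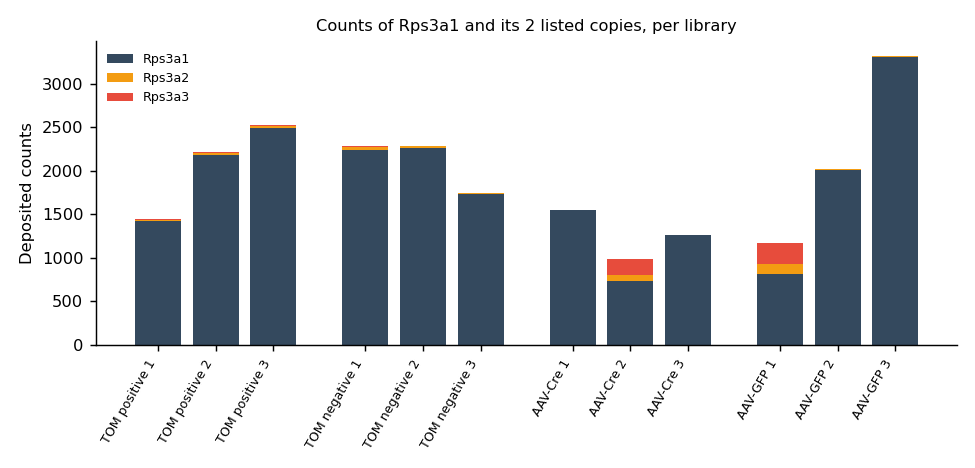
Deposited counts of Rps3a1, Rps3a2 and Rps3a3 stacked per library in the 4 groups. The copies are visible in AAV-Cre 2 (26.0% of the sum) and AAV-GFP 1 (30.7%) and hold at most 1.76% elsewhere.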

How the data were processed

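Bulk RNA sequencing counts of 12 libraries of sorted mouse cells were used. Cells were collected in Trizol and their RNA went through the SMART-Seq mRNA LP kit, per the labels' protocols, which describe no molecular identifiers, so PCR copies count as reads. The authors deposited raw whole-number counts for each gene symbol. The reads passed FastQC, Trim Galore, STAR and featureCounts on mm10, per the submitters' processing notes. Per the file headers, the AAV libraries were counted with featureCounts 2.0.1 on GENCODE vM30, without strand and without multi-mapping reads. How the TOM table was counted is not given in the sources used. The 6 single AAV files equalled their columns in the joint table.

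The 6 libraries of a pair were fitted together in edgeR 4.0.16 under R 4.3.3 (TMM, filterByExpr with a minimum count of 10, quasi-likelihood test, two-sided), adjusted by Benjamini-Hochberg over all genes tested at 0.05. CPM uses TMM-scaled totals of the pair, and the SE comes from the quasi-likelihood F statistic. DESeq2 1.42.0 was an alternative. Coding lengths and shared stretches come from GENCODE vM21 and were matched by symbol. The named members were those with known special roles, the called members with the largest fold change (or the smallest p where few were called), the highest and lowest levels, and the fold changes nearest 0. A few further called genes are given as examples. The members, gene lists and comparisons were chosen with earlier results of these data known. Some genes are not reported here by name.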

Additional observations from a re-analysis of the deposited data

How the results depend on the processing

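The count of 28 members called lower in TOM positive cells was 43 with DESeq2, 11 with all 12 libraries in one fit, 13 with library totals without scaling factors and 6 in a test against a 1.5-fold change. It was 28 with RLE size factors, with TMM factors from other genes, and with mitochondrially encoded or non-neuronal marker genes removed, and 22 with no count filter. With 1 library left out it ran from 6 to 27. The share of all genes called lower is not given for the fits with a library left out. That share is also not given with RLE size factors, other TMM factors, removed genes or no count filter. In the test against a 1.5-fold change the members' share was below the 8.57% of all genes. The unscaled fit moved the median of all genes to 0.24 and that of the members to -0.35, a gap of -0.59, as in the scaled fit. In the PVH pair the 0 calls became 2 with DESeq2 and 3 with all 12 libraries in one fit. The causes of these shifts were not tested.

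With the replicate number as a block, 11 members were called lower in TOM positive cells and 0 in AAV-Cre cells. Deviations of same-numbered libraries correlated at -0.03, -0.01 and 0.02 in the TOM pair and at -0.07, -0.07 and -0.06 in the PVH pair. With 3 libraries a group, these values cannot decide whether same-numbered libraries came from the same animals or the same sort.

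Some fold changes that did not pass the test changed sign, with a library left out in 7 of 82 members in the TOM pair and 17 of 81 in the PVH pair; values are given for the named members. With unscaled totals the TOM log2 fold changes were 0.14 for Rpl22, 0.24 for Rpl31, 0.22 for Rps24 and 0.021 for Rps27a. In the PVH pair, Rpl4 was 0.026 and Rpl7 0.0035 with unscaled totals, and Rpl7 was 0.011 with the replicate block. With 1 library left out, the TOM values ran from -0.55 to 0.048 for Rpl22, -0.15 to 0.12 for Rpl22l1, -0.20 to 0.083 for Rpl31, -0.045 to 0.22 for Rpl4, -0.22 to 0.043 for Rps24 and -0.83 to 0.044 for Rps3a2. The PVH values ran from -0.44 to 0.079 for Rpl3, -1.28 to 0.078 for Rpl39, -0.34 to 0.23 for Rpl4, -0.52 to 0.042 for Rpl5, -0.42 to 0.58 for Rpl7, -0.028 to 0.48 for Rpl7l1, -0.73 to 0.27 for Rps24, -2.64 to 1.22 for Rps3a2 and -0.75 to 0.041 for Rps4x. With 3 libraries a group, the spread of the AAV-GFP libraries limits what the PVH pair can show, and a missed threshold does not show that levels were alike.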
